A study of Mus musculus with 3 samples.

Results

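Kinesins are motor proteins that use ATP to walk along microtubules or to shorten them. In neurons one set carries synaptic vesicle precursors, mitochondria and other cargo from the cell body into axons and dendrites, while in dividing cells another set builds the spindle, moves chromosomes and completes cytokinesis. Neurons no longer divide, although a few mitotic kinesins, among them Kif11, Kif15 and Kif23, also have described roles in the microtubules of neuronal processes.

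The 39 listed genes of the kinesin superfamily, light chains and the accessory subunit Kifap3 included, were read from count tables of 54232 mouse gene identifiers. They were chosen by name and sorted by role into 16 transport motors and subunits, 12 mitotic motors and 11 others. All 39 passed the expression filter of at least 1 CPM (count per 1e+06 counts, scaled to library size) in at least 1 library, as did 13884 genes in all.

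The counts come from 3 RNA-seq libraries of wildtype cortical neurons of CD1 mice. The first library, IKVAV PA + PEDOT-S, stands for a peptide amphiphile (a self-assembling peptide) with the laminin sequence IKVAV and a second component, called PS2 in the title and PEDOT-S_OH in the library name and taken here to be 1 material. PEDOT-S is a sulfonated conducting polymer. The second, IKVAV PA, had the amphiphile without it, and the third, PDL, is labelled as the control, with PDL not spelled out. The treatment field names a peptide amphiphile for the control too, so groups were read from titles and library names. The sources used here give neither the age of the animals nor the days in culture, and do not say whether animals were pooled. Total counts were 79057998 in IKVAV PA + PEDOT-S, 124425958 in IKVAV PA and 78993105 in the PDL control. Every group has 1 library, repeat 3 of each, so no test between groups was possible and no difference below has a replicate check. The comparisons describe these libraries, with 95% intervals for counting error only. A gene is called higher or lower where the interval bound nearest to no difference lies beyond 1.5-fold.

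The labelled cell type was checked against 10 neuronal markers. Their levels ran from 74.4 to 2658 CPM, summing to 10231 CPM in IKVAV PA + PEDOT-S, 10470 CPM in IKVAV PA and 10228 CPM in the PDL control. Tubb3, the neuronal tubulin, stood at 1918, 2031 and 1842 CPM in that order, and Map2, the dendritic microtubule protein, at 2377, 2450 and 2447 CPM. Against the PDL control, the log2 ratios of the 10 markers ran from -0.18 to 0.36 in IKVAV PA + PEDOT-S and from -0.30 to 0.22 in IKVAV PA. None was called higher or lower in any comparison. Over all genes 3.76% were called lower and 0.447% higher in IKVAV PA + PEDOT-S, and 3.42% and 0.54% in IKVAV PA, so this count is near the background.

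Since every call among the 39 members reported below fell on a mitotic motor, promoter windows of that class are shown first. The axonal motor Kif5c is added for contrast. The 2 letter patterns, both found near the starts of many cell cycle genes, were looked for on both strands in the RefSeq promoter windows of build GRCm38.p6, from 250 bases before to 50 bases after a gene's start. The first is the cell cycle genes homology region (CHR), searched with the usual letters TTTGAA. Its variant spelling TTCGAA, which reads the same on both strands, was searched too and is counted with it. The region is known as a binding site of the MuvB complexes that switch cell cycle genes off at rest and on before mitosis. The second is CCAAT, the box known as the site of the factor NF-Y. In the windows below, in lower case, capitals mark these letters, and a match on the opposite strand stands there as its reverse complement. The letters of the 2 patterns do not contain each other. Kif11, Kif23 and Kif18b are shown because they hold both patterns close to the start and were among the mitotic motors with the largest differences, and Kif18a because its levels differed from those of the other mitotic motors. Picked by level in this way, they do not link the patterns to the size of a difference. Kif22 and Kifc1 also hold both patterns close to the start, but were not called in IKVAV PA against the PDL control (log2 ratios -0.62 and -0.69). Kif14, with the largest difference of the members, holds its CHR letters 228 bases before the start used.
Kif11: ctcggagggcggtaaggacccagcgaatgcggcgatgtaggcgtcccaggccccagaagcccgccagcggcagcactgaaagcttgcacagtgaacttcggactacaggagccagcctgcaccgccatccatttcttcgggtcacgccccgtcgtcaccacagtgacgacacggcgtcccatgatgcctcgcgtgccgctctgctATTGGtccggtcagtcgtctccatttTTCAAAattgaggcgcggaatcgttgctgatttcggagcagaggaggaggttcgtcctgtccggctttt
Kif23: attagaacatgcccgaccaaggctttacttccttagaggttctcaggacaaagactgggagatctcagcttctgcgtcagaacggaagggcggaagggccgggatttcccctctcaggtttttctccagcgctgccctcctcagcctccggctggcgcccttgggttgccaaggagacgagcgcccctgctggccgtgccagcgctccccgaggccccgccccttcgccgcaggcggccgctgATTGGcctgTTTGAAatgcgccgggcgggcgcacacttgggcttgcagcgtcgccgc
Kif18b: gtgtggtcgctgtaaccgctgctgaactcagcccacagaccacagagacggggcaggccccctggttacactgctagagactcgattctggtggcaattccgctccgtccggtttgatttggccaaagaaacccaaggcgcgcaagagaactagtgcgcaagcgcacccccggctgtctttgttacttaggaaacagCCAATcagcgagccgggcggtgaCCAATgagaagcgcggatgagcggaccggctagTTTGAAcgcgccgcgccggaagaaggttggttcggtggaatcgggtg
Kif18a: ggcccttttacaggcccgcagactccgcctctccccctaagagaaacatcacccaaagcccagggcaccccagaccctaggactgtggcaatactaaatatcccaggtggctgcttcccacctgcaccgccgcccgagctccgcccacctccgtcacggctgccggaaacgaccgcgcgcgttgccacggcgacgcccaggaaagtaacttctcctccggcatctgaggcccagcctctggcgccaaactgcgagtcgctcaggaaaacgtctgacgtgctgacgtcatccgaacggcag
Kif5c: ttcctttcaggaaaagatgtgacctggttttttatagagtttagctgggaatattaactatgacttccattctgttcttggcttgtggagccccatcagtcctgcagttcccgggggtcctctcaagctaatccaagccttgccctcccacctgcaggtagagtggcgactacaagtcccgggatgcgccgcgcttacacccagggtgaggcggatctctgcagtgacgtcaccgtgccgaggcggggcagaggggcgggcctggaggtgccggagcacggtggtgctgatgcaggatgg
The Kif11 window is chr19:37376132-37376431 on the plus strand and the Kif23 window chr9:61946750-61947049 on the minus strand. The Kif18b window is chr11:102925075-102925374 on the minus strand. Kif18a and Kif5c have plus strand windows at chr2:109280488-109280787 and chr2:49619036-49619335. Each covers the promoter, the first transcribed bases of the gene and no more.

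The CHR letters stood in 10 of 11 windows of mitotic motors (90.9%), 1 of 14 of transport motors (7.14%) and 3 of 10 of the other members. Of all 32851 windows of this length, 19.2% held them. The 1 transport match lay in a second start of Kif1a, inside the annotated gene. The windows of Kif2c, Kif4, Kif14, Kif17 and Kif27 also lie inside the annotated genes, past their outermost start. The CHR letters of Kif14 and Kif2c stood 228 and 103 bases before the starts used. Within 30 bases of the start, a limit chosen after seeing the data, the CHR letters stood in 8 of 11 mitotic windows and in none of 14 transport windows, against 3.4% of all windows. Kif11 had them 19 bases before the start with CCAAT 45 bases before it, Kif18b at base 4 after it with CCAAT 53 and 30 bases before it, and Kif23 at base 3 with CCAAT 7 bases before it. CCAAT stood in 7 of 11 mitotic windows (63.6%), 5 of 14 transport windows (35.7%) and 37.4% of all windows. Both patterns together stood in 7 of 11 mitotic windows, in no transport window and in 7.52% of all windows. Median GC content was 60.7% in mitotic windows, 68.2% in transport windows and 52.7% in all. The Kif18a and Kif5c windows held neither pattern, so Kif5c does not stand for the transport windows that held CCAAT. Windows of Kif5a, Kif5b, Klc2, Kif13b, Kif20a, Kif21b, Kifc2 and Kifc3 were not used here, so 31 of 39 members were matched, some with several starts. A match is a description of letters and not a site.

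**Figure D1:**
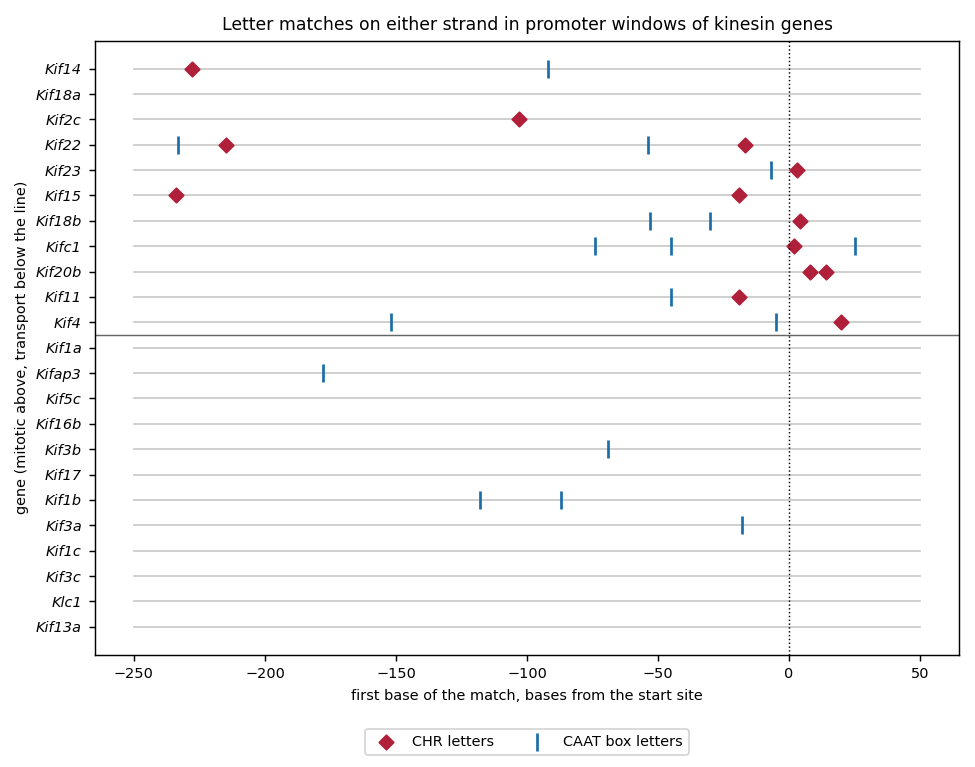
Positions of the letter matches on either strand in the first promoter window of each matched mitotic (above) and transport motor (below), in bases from the start site (dotted line). Diamonds are CHR letters and bars are CAAT box letters. Mitotic windows gather diamonds near the start, the Kif18a row is empty, and no transport row shown holds a diamond.

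Most mitotic motors had lower levels in both scaffold libraries than in the PDL control library. In IKVAV PA + PEDOT-S against the PDL control, 11 of the 12 were called lower and none higher, with a median log2 ratio of -1.27 (range -2.10 to -0.10). No other of the 39 members was called in this comparison, in which 3.76% of the 13884 genes were called lower and 0.447% higher. In IKVAV PA against the PDL control, 8 of the 12 were called lower, again with no other member called, against 3.42% of all genes lower and 0.54% higher. Here the median log2 ratio was -1.02 (range -1.79 to -0.55). Both comparisons share the PDL library, so they are not independent of each other. Kif18b, called lower in both, passed the expression filter through that library alone. Over all genes tested the median log2 ratio was 0.00 in each. Summed over the 12 genes, the level was 34.5 CPM in IKVAV PA + PEDOT-S, 35.9 CPM in IKVAV PA and 72.6 CPM in the PDL control, from 2703, 4473 and 5785 counts. That is 2.10-fold lower in IKVAV PA + PEDOT-S than in the PDL control (log2 ratio -1.07, interval -1.14 to -1.01) and 2.02-fold lower in IKVAV PA than in the PDL control (-1.02, interval -1.07 to -0.96). Fewer dividing cells and less of these RNAs per cell cannot be told apart in such bulk libraries.

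**Figure D2:**
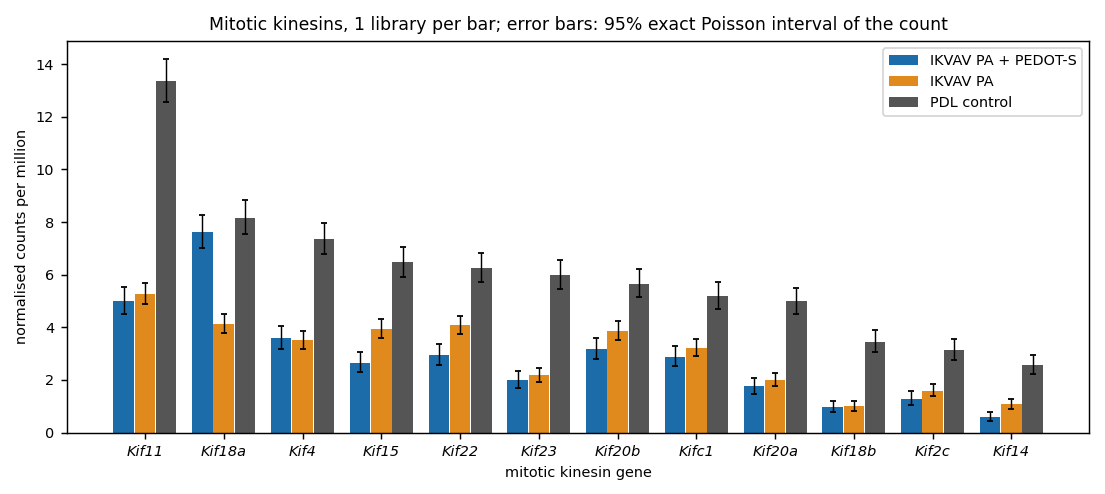
Normalised CPM of the 12 mitotic motors in IKVAV PA + PEDOT-S, IKVAV PA and the PDL control, 1 library per bar, with exact 95% Poisson intervals of the count as error bars. The PDL bar is the tallest for every gene, and for Kif18a the IKVAV PA + PEDOT-S bar, at 7.63 CPM, lies close to the PDL bar at 8.17 CPM.

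Among the motors that build the spindle, Kif11, which slides its antiparallel microtubules apart, had 5.0 CPM in IKVAV PA + PEDOT-S, 5.27 CPM in IKVAV PA and 13.4 CPM in the PDL control. It was 2.67-fold lower in IKVAV PA + PEDOT-S than in the PDL control (log2 ratio -1.42, interval -1.59 to -1.25) and 2.53-fold lower in IKVAV PA than in the PDL control (-1.34, interval -1.48 to -1.20). The scaffolds lay together, well under the control. Kif15, which backs up Kif11 in holding the poles apart, had 2.66 CPM in IKVAV PA + PEDOT-S, 3.95 CPM in IKVAV PA and 6.47 CPM in the PDL control. It was called lower in IKVAV PA + PEDOT-S against the control (-1.28). Its ratio of -0.71 in IKVAV PA against the control was not called, since the interval (-0.89 to -0.53) reached inside the bound. Kifc1, a minus-end motor that gathers spindle poles, had 2.89, 3.23 and 5.20 CPM in the same order. Its log2 ratio was -0.85 in IKVAV PA + PEDOT-S, called lower, and -0.69 in IKVAV PA, not called. The values of Kifc1 are uncertain, because Kifc5b is a near-identical copy that can take some of its reads. Kifc5b had 1.76, 2.43 and 3.43 CPM, with the same order of libraries.

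Of the motors that handle chromosomes and microtubule ends, Kif18b, which trims astral microtubules, had 0.971 CPM in IKVAV PA + PEDOT-S, 0.995 CPM in IKVAV PA and 3.45 CPM in the PDL control. It was 3.56-fold lower in IKVAV PA + PEDOT-S than in the PDL control (log2 ratio -1.83, interval -2.22 to -1.46) and 3.47-fold lower in IKVAV PA (-1.79, interval -2.11 to -1.48). Both scaffold libraries stood at nearly the same level, under 1 CPM. Kif18b thus passed the filter through the PDL control alone, the library where it was high. Without a filter, the mitotic motors called lower still numbered 11 in IKVAV PA + PEDOT-S and 8 in IKVAV PA, beside 1068 and 859 of all genes. Kif2c, a depolymerase that frees wrongly attached microtubules from kinetochores, had 1.29, 1.60 and 3.15 CPM in IKVAV PA + PEDOT-S, IKVAV PA and PDL, and was called lower in both scaffolds (log2 ratios -1.29 and -0.98). Kif22, which pushes chromosome arms outward, had 2.95, 4.08 and 6.25 CPM and was called lower in IKVAV PA + PEDOT-S (-1.08) but not in IKVAV PA (-0.62). Kif4, a chromosome and midzone motor, had 3.60, 3.51 and 7.36 CPM and was called lower in both scaffolds (-1.03 and -1.07). Of its exonic bases 15.1% are shared with Pdzd11, which stood at 22.7, 20.2 and 22.1 CPM and was not called, so the values of Kif4 are uncertain.

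Kif18a, which dampens the movements of chromosomes at the spindle's middle, was the exception. It had 7.63 CPM in IKVAV PA + PEDOT-S, 4.12 CPM in IKVAV PA and 8.17 CPM in the PDL control, from 597, 514 and 651 counts. Only the IKVAV PA library was low. The log2 ratio was -0.10 in IKVAV PA + PEDOT-S against the PDL control (interval -0.26 to 0.06) and -0.99 in IKVAV PA against the PDL control (interval -1.16 to -0.82). Between the scaffolds it was 0.89 (interval 0.71 to 1.06), 1.85-fold higher in IKVAV PA + PEDOT-S than in IKVAV PA. That was the only call among the 39 members between the scaffolds, where 0.331% of all genes were called higher and 2.02% lower in IKVAV PA + PEDOT-S.

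For cytokinesis, Kif23, the motor of the centralspindlin complex, had 2.01 CPM in IKVAV PA + PEDOT-S, 2.18 CPM in IKVAV PA and 5.99 CPM in the PDL control. It was 2.99-fold lower in IKVAV PA + PEDOT-S than in the PDL control (log2 ratio -1.58) and 2.74-fold lower in IKVAV PA than in the PDL control (-1.46). Kif14, needed to finish abscission, had 0.600 CPM in IKVAV PA + PEDOT-S, 1.08 CPM in IKVAV PA and 2.57 CPM in the PDL control, from 47, 134 and 205 counts. By length it was the lowest of the 39 members in every library. Its 4.29-fold lower level in IKVAV PA + PEDOT-S against the PDL control was the largest difference among the members (log2 ratio -2.10, interval -2.59 to -1.64), and the few counts make it one of the least precise. In IKVAV PA against the PDL control it was called lower too (-1.26, interval -1.58 to -0.94). Kif20a, which brings the chromosomal passenger complex to the midzone, had 1.76, 2.01 and 5.0 CPM and was called lower in both scaffolds (-1.50 and -1.31). It shares 29.3% of its exonic bases with Cdc23, which was not called, at 87.9, 84.7 and 85.6 CPM, and its values are uncertain for that reason. Kif20b, needed in mouse cortex for the last step of division of progenitors, had 3.18, 3.87 and 5.66 CPM, called lower in IKVAV PA + PEDOT-S (-0.83) and not in IKVAV PA (-0.55). Between the scaffolds the median log2 ratio of the 12 mitotic motors was -0.17, and their summed level, which includes the higher Kif18a, differed by -0.06 (interval -0.13 to 0.01). Of the 12 ratios, 10 lay below 0 and 2 above. Kif14 (-0.84, interval -1.35 to -0.35), Kif15 (-0.57, interval -0.81 to -0.33), Kif22 (-0.47, interval -0.70 to -0.24) and Kif20b (-0.28, interval -0.51 to -0.06) were lower in IKVAV PA + PEDOT-S beyond counting error. None of these 4 was called.

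**Figure D3:**
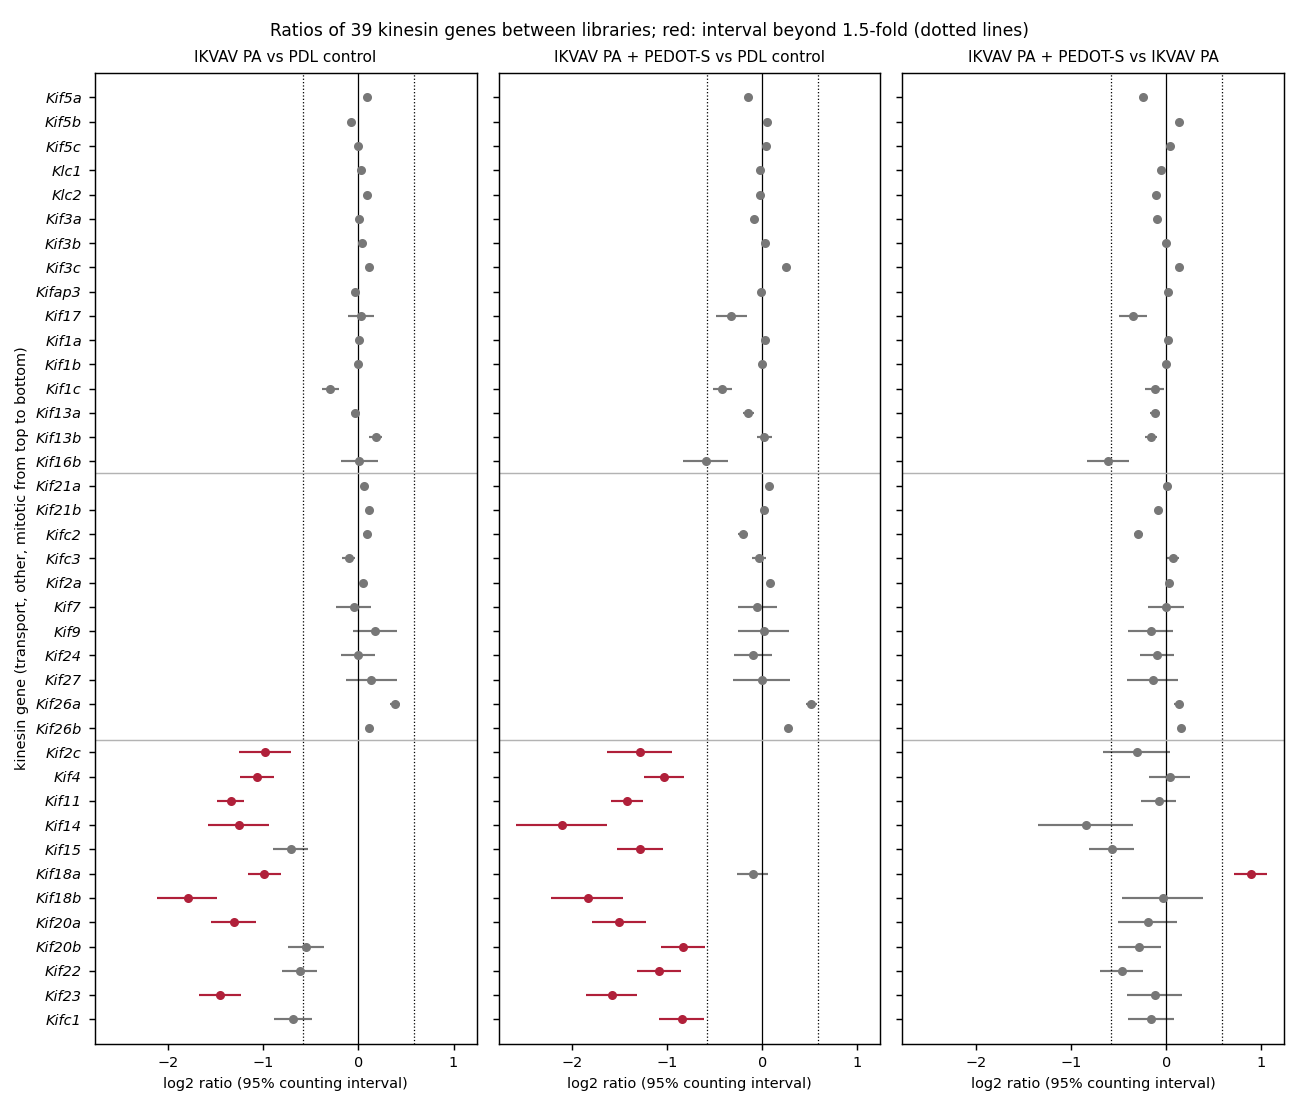
Log2 ratios of the 39 members with 95% counting intervals in the 3 comparisons, transport motors above, others in the middle and mitotic motors below. Red marks calls, where the whole interval lies beyond 1.5-fold (dotted lines). The calls fall on the mitotic rows alone, 11 for IKVAV PA + PEDOT-S over PDL, 8 for IKVAV PA over PDL, and Kif18a between the scaffolds.

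Most partners of these motors were called in the same direction. Of 24 listed mitotic partners 23 passed the filter, and 19 were called lower in IKVAV PA + PEDOT-S and 18 in IKVAV PA against the PDL control. Over all genes 3.76% and 3.42% were called lower. The medians of the partners were -1.18 and -1.20. The summed level of all 24, to which Ckap5 gives most, was 424 CPM in IKVAV PA + PEDOT-S, 417 CPM in IKVAV PA and 505 CPM in the PDL control, log2 ratios of -0.25 and -0.28 that were within the bound. None of the partners was called between the scaffolds, where 0.331% of all genes were called higher and 2.02% lower. Aurkb, the kinase of the chromosomal passenger complex, had a log2 ratio of -2.19 in IKVAV PA + PEDOT-S and -1.66 in IKVAV PA against the control. Prc1, which bundles midzone microtubules and works there with Kif4, was at -1.31 and -1.19, and Tpx2, a spindle assembly factor that binds Kif11, at -1.0 and -1.20. Racgap1, the partner of Kif23 in centralspindlin, was not called, at -0.59 and -0.43. Ckap5, a microtubule polymerase that neurons also use, had 324 CPM in IKVAV PA + PEDOT-S, 315 CPM in IKVAV PA and 317 CPM in the PDL control. The partners had 23 RefSeq windows from 20 genes, and the CHR letters stood in 19 of these windows (82.6%), against 19.2% of all windows. By gene that is 16 of 20 (80%), against 21.7% of all genes with windows. Of 8 proliferation markers, 6 were called lower in IKVAV PA + PEDOT-S and 7 in IKVAV PA, beside the same 3.76% and 3.42% of all genes. Mki67, the standard marker of cycling cells, had 12.6 CPM in IKVAV PA + PEDOT-S, 12.7 CPM in IKVAV PA and 42.1 CPM in the PDL control. Cenpe, a kinetochore kinesin outside the 39, was called lower in both scaffolds, at 5.38, 6.27 and 11.5 CPM.

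Some markers of other cells differed in the same direction as the mitotic motors and others did not, and their part in the result was not tested. Against the PDL control, 3.76% of all genes were called lower and 0.447% higher in IKVAV PA + PEDOT-S, and 3.42% and 0.54% in IKVAV PA. Neural progenitor markers, of which 7 of 8 passed the filter, summed to 236 CPM in IKVAV PA + PEDOT-S, 206 CPM in IKVAV PA and 437 CPM in the PDL control. Fabp7, Nes and Vim were called lower in each scaffold, and the other 4 were not called. Of these, 1 had a log2 ratio above 0 in each scaffold, 0.69 in IKVAV PA + PEDOT-S and 0.19 in IKVAV PA. Astrocyte markers (7 of 8 passing) summed to 59.2, 47.3 and 111 CPM, with 3 called lower and Gfap higher in IKVAV PA + PEDOT-S, and 6 lower in IKVAV PA. Markers of meningeal fibroblasts and mural cells (7 of 8) summed to 27.0, 59.1 and 144 CPM, with 7 and 4 called lower. Markers of the oligodendrocyte lineage (9 of 9) summed to 94.4, 68.4 and 99.1 CPM and split, with 4 lower and 4 higher in IKVAV PA + PEDOT-S, and 4 lower and 2 higher in IKVAV PA. Endothelial markers (2 of 4) summed to 2.98, 2.98 and 5.22 CPM with 1 lower in each scaffold, microglial markers (1 of 6) to 2.50, 2.53 and 1.98 CPM, and erythroid markers (0 of 4) to 0.511, 0.947 and 0.603 CPM. Of all these markers, Hbb-bt was at 0 in IKVAV PA and PDL, and Hba-a2 at 0 in IKVAV PA.

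None of the 16 transport motors was called in any comparison. Calls were rare over all genes too, at 3.76% lower and 0.447% higher in IKVAV PA + PEDOT-S and 3.42% lower and 0.54% higher in IKVAV PA against the PDL control, so a count of 0 among 16 is near the background and shows nothing particular to the class. Their median log2 ratio was -0.02 in IKVAV PA + PEDOT-S and 0.01 in IKVAV PA against the PDL control, and -0.07 between the scaffolds. Summed, they stood at 8487 CPM in IKVAV PA + PEDOT-S, 8549 CPM in IKVAV PA and 8449 CPM in the PDL control. Per length (RPKM, reads per kilobase of exon and per 1e+06 reads), they made up 85.1%, 85.0% and 85.2% of the summed level of the 39 members in these libraries. Mitotic motors made up 0.403%, 0.426% and 0.875%.

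**Figure D4:**
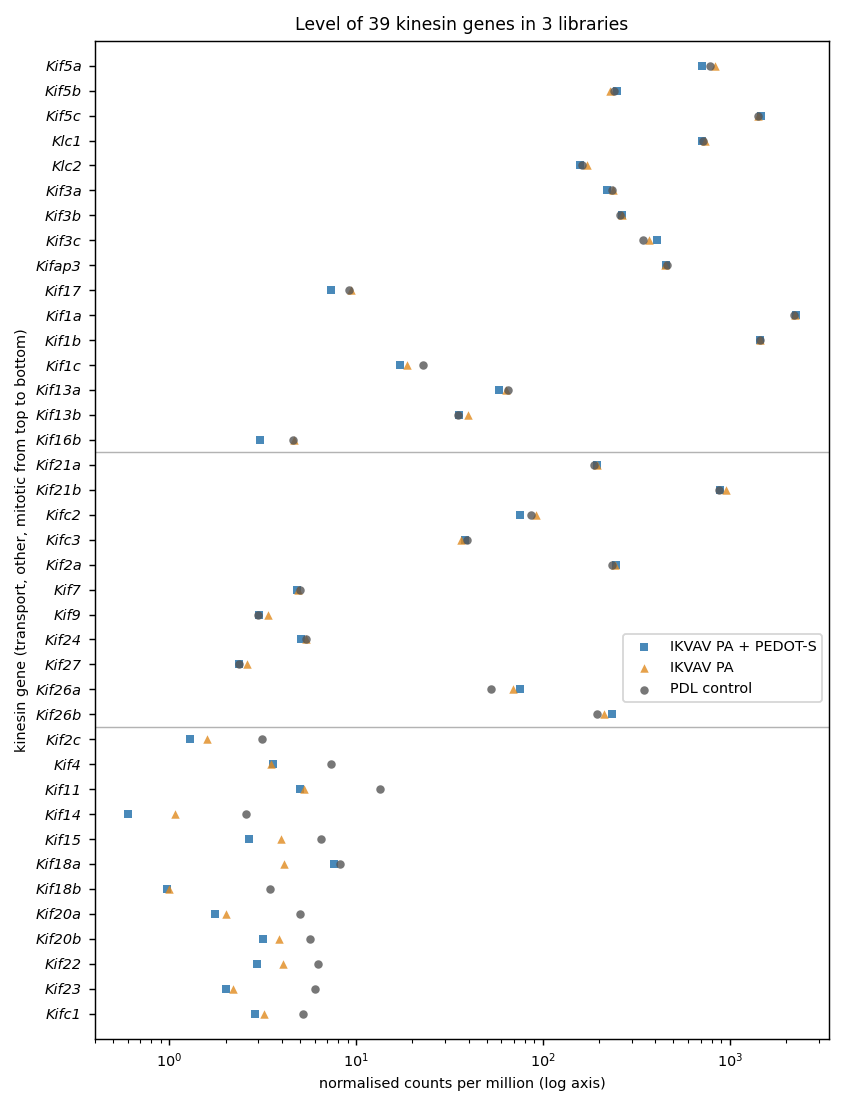
Normalised CPM of the 39 members in the 3 libraries on a log axis, with transport motors above, other members in the middle and mitotic motors below. The 3 marks of most transport and other members overlap, while for mitotic motors the grey PDL marks lie to the right. CPM is not corrected for gene length, so rows are not to be compared with each other.

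In conventional kinesin, the fast anterograde motor, the neuronal heavy chain Kif5c had 1466 CPM in IKVAV PA + PEDOT-S, 1427 CPM in IKVAV PA and 1426 CPM in the PDL control. These are differences of at most 1.03-fold. Kif5a, the neuron-restricted heavy chain that also carries neurofilaments, had 711 CPM in IKVAV PA + PEDOT-S, 839 CPM in IKVAV PA and 786 CPM in the PDL control. Between the scaffolds it was 1.18-fold lower in IKVAV PA + PEDOT-S (log2 ratio -0.24, interval -0.26 to -0.23), beyond counting error but within the 1.5-fold bound. Kif5b, the heavy chain found in most tissues, had 250, 228 and 241 CPM. By length, Kif5c held 60.7% of the 3 heavy chains in IKVAV PA + PEDOT-S, 57.3% in IKVAV PA and 58.3% in the PDL control, and Kif5a 30.1%, 34.5% and 32.8%. The light chains, which bind cargo, followed the same pattern of near-equal levels, with Klc1 at 708, 734 and 721 CPM and Klc2 at 159, 172 and 161 CPM. Klc2 shares 10.6% of its exonic bases with other genes, so its values are uncertain.

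The heterotrimeric motor of Kif3a, Kif3b and the cargo-binding subunit Kifap3 serves both axonal transport and the building of cilia. Kif3a had 221 CPM in IKVAV PA + PEDOT-S, 237 CPM in IKVAV PA and 236 CPM in the PDL control, Kif3b had 266, 267 and 260 CPM, and Kifap3 had 458, 451 and 463 CPM. The ratio furthest from 0 among these 3 genes was -0.10 on the log2 scale, for Kif3a between the scaffolds. Kif3c, a neuronal partner of Kif3a, had 407, 370 and 344 CPM, with log2 ratios of 0.24 in IKVAV PA + PEDOT-S and 0.11 in IKVAV PA against the control. Its share of the Kif3 genes by length was 33.5%, 30.6% and 29.3%. Of its exonic bases 40.7% are shared with other genes, so its values are uncertain. Kif17, a dendritic motor known for carrying NMDA receptor subunits, had 7.36, 9.39 and 9.21 CPM and was far lower by length, at 1.61, 2.05 and 2.01 RPKM. The IKVAV PA + PEDOT-S library was the low one, with log2 ratios of -0.32 (interval -0.48 to -0.17) against the PDL control and -0.35 (interval -0.50 to -0.21) against IKVAV PA, neither called.

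Kif1a, the motor of synaptic vesicle precursors, was the highest of the 39 members by length in each library, at 243 RPKM in IKVAV PA + PEDOT-S, 240 RPKM in IKVAV PA and 238 RPKM in the PDL control. Its counts came to 2267, 2237 and 2223 CPM, with a log2 ratio of 0.03 in IKVAV PA + PEDOT-S and 0.01 in IKVAV PA against the control. Kif1b, which carries mitochondria and synaptic vesicle precursors, was still closer, at 1452, 1451 and 1452 CPM. Kif1c, a widely expressed relative that carries dense core vesicles, made up under 1% of the Kif1 genes by length and had 17.2, 18.7 and 22.9 CPM. It was lower in both scaffold libraries by more than counting error, at log2 ratios of -0.42 (interval -0.52 to -0.32) and -0.30 (interval -0.39 to -0.21), yet within the bound. Kif13a, a motor of endosomes and sorting vesicles, had 58.5, 63.4 and 64.7 CPM, and its relative Kif13b had 35.6, 39.7 and 35.0 CPM. Kif16b, which moves early endosomes, had 3.04 CPM in IKVAV PA + PEDOT-S, 4.63 CPM in IKVAV PA and 4.59 CPM in the PDL control. This was the largest difference among the transport motors, 1.51-fold lower in IKVAV PA + PEDOT-S than in the PDL control (interval of the log2 ratio -0.84 to -0.36) and 1.52-fold lower than in IKVAV PA (interval -0.83 to -0.39). Its intervals reach inside the 1.5-fold bound, so neither was called.

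**Figure D5:**
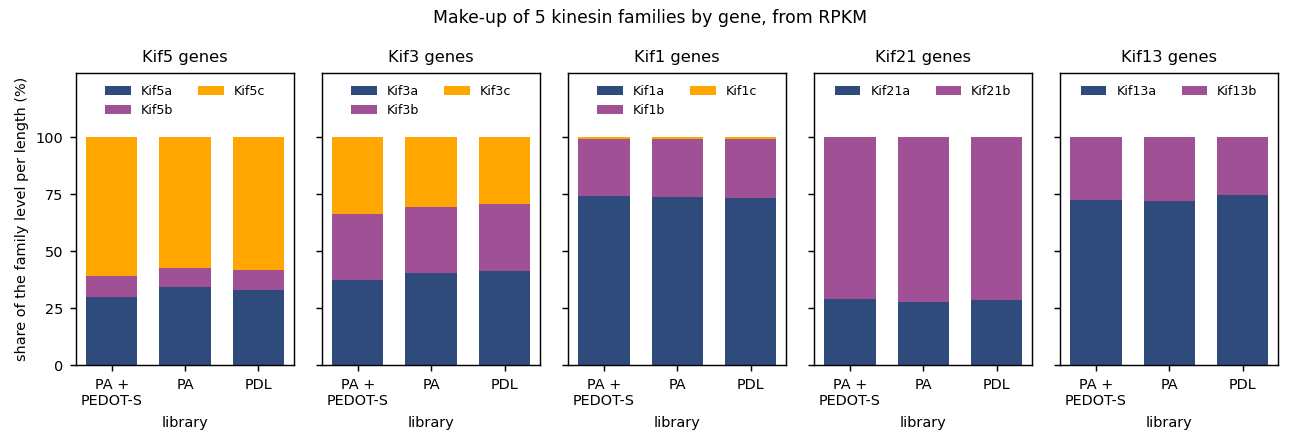
Share of each gene in the summed RPKM of its family, in percent, for the Kif5, Kif3, Kif1, Kif21 and Kif13 genes in IKVAV PA + PEDOT-S, IKVAV PA and the PDL control. The order of the genes within each family is alike in the 3 libraries, with Kif3c and Kif3b close in the PDL control (29.3% and 29.2%). The Kif3c share is largest, at 33.5%, in IKVAV PA + PEDOT-S.

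By length the order of the most abundant members hardly moved. Kif1a, Kif5c and Klc1 held the first 3 places in all libraries, with Klc1 at 174 RPKM in IKVAV PA + PEDOT-S, 180 RPKM in IKVAV PA and 177 RPKM in the PDL control. Kifap3 and Kif5a shared the next places, with Kifap3 ahead in IKVAV PA + PEDOT-S (114 and 102 RPKM) and in the PDL control (115 and 112 RPKM), and Kif5a ahead in IKVAV PA (120 and 112 RPKM). Kif1b, Kif21b, Kif3a, Kif3c and Kif3b followed in that order in each library. The lengths are those of all annotated exons of a gene, so the ranks depend on that choice.

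None of 28 cargo adaptors and regulators of kinesin transport was called in any comparison, which is near the share of all genes. Trak1, which links kinesin to mitochondria, had 221 CPM in IKVAV PA + PEDOT-S, 213 CPM in IKVAV PA and 218 CPM in the PDL control, and Mapk8ip3, an adaptor of vesicle transport with 20.4% of its exonic bases shared, had 428, 442 and 427 CPM. Of 24 dynein and dynactin genes, only Nde1 was called, lower in both scaffolds (log2 ratios -1.08 in IKVAV PA + PEDOT-S and -1.12 in IKVAV PA), again near the 3.76% and 3.42% of all genes called lower. Nde1 is a dynein regulator known for its part in the division of cortical progenitors, and it had 3.31, 3.22 and 6.98 CPM. Dync1h1, the dynein heavy chain, had 1578, 1584 and 1557 CPM, and Dctn1, the large dynactin subunit, 506, 510 and 508 CPM.

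None of the 11 other members was called in any comparison, a count that the low share of calls over all genes would also give. Their median log2 ratio was 0.01 in IKVAV PA + PEDOT-S and 0.09 in IKVAV PA against the PDL control. The one furthest from the control was Kif26a, of a branch of kinesins without ATPase activity. Kif26a, which restrains growth factor signalling in enteric neurons of the mouse, had 75.3 CPM in IKVAV PA + PEDOT-S, 68.8 CPM in IKVAV PA and 52.7 CPM in the PDL control. It was 1.43-fold higher in IKVAV PA + PEDOT-S (log2 ratio 0.52, interval 0.46 to 0.57) and 1.31-fold higher in IKVAV PA (0.38, interval 0.33 to 0.44), the largest upward ratios among the members against the control, and both within the bound. Its relative Kif26b, known from kidney development, had 236, 212 and 196 CPM, with the libraries in the same order. Among the microtubule-regulating members, Kif21b and Kif21a, which slow microtubule growth, had 894, 951 and 880 CPM and 196, 195 and 187 CPM. Kif2a, a depolymerase that limits axon branching, had 248, 242 and 234 CPM, uncertain because it shares 19.2% of its exonic bases. Of the minus-end motors, Kifc2, found mainly in neurons, had 75.4, 92.4 and 86.8 CPM, with IKVAV PA + PEDOT-S below IKVAV PA by -0.29 on the log2 scale, and Kifc3 had 38.2, 36.5 and 39.2 CPM, uncertain with 27.5% of exonic bases shared.

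The cilium and Hedgehog kinesins were low by length, summing to 2.84 RPKM in IKVAV PA + PEDOT-S, 3.02 RPKM in IKVAV PA and 2.92 RPKM in the PDL control. Kif7, which sets the Hedgehog response at the tip of the cilium, had 4.84 CPM in IKVAV PA + PEDOT-S, 4.85 CPM in IKVAV PA and 5.02 CPM in the PDL control, values that are uncertain with 20.3% of exonic bases shared. Kif27, related to Kif7, had 2.36, 2.61 and 2.37 CPM, Kif9, of motile cilia, 3.02, 3.37 and 2.99 CPM, and Kif24, which restrains cilium formation at the centriole, 5.06, 5.41 and 5.41 CPM. The largest ratio of these 4 genes to the control was 0.17 on the log2 scale, for Kif9 in IKVAV PA. Of 20 genes of cilia and Hedgehog signalling, 19 passed the filter. In IKVAV PA + PEDOT-S 1 was called lower and 18 were not called, and in IKVAV PA 2 were called lower and 17 were not called, where 3.76% and 3.42% of all genes were called lower. The ratio to the control was below 0 for 17 of the 19 in IKVAV PA + PEDOT-S (median log2 ratio -0.21) and for 10 in IKVAV PA (median -0.0009). Over all genes the medians were -0.0025 and 0.0002. Gli3, a Hedgehog transcription factor that Kif7 helps to regulate, was called lower in both scaffolds (log2 ratios -1.76 in IKVAV PA + PEDOT-S and -1.44 in IKVAV PA). Gli2, its relative, was called lower in IKVAV PA (-1.41) and not in IKVAV PA + PEDOT-S (-0.57).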

How the data were processed

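The authors deposited whole-number counts per gene for each library, not normalised. Per the submitters' processing notes, reads were handled with HTSeq 2.0.2, STAR 2.7.5, DESeq2 1.14.1 and cutadapt 4.2, in no stated order, and build mm10. The sources used here give no annotation release, strand setting or filter. Reads of genes that overlap may therefore have been counted for the wrong gene, and 7 members with over 10% of exonic bases shared were named as uncertain. Per the labels' protocols, libraries were made with a total RNA kit, whereas the molecule field reads polyA RNA.

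Identifiers were matched to GENCODE M21 (54165 of 54232), which also gave exon lengths, while unmatched ones made up no more than 0.0126% of any library. Counts were scaled with TMM factors (0.990 for IKVAV PA + PEDOT-S, 1.00 for IKVAV PA and 1.01 for PDL) from edgeR 4.0.16 in R 4.3.3, and ratios were given exact Clopper-Pearson 95% intervals of the count in 1 library given the sum of both. No molecular identifiers are recorded, so reads may be copies of 1 molecule and intervals cover counting error only. List medians used a prior count of 2. The calculation was tested on simulated data. With 1 library per group no test and no p-value was computed. Alternatives were DESeq2 1.42.0 size factors, no factors, other filters, a 2-fold bound, thinned libraries, protein-coding genes alone, means for medians, a prior count of 0.5, another transcript length and leaving out single members.

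All 39 members are given. Of other lists, the text names genes from the up to 4 with the largest interval bound in each comparison with PDL, and 12 chosen genes such as Mki67. The members, lists and promoter patterns were chosen with earlier results of these data known. Protein sequences were not used here.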

Additional observations from a re-analysis of the deposited data

How the results depend on the processing

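No call was reversed in any alternative run, and no call of a member changed except at a 2-fold bound or where a filter removed it. At the 2-fold bound the mitotic motors called lower were 6 in IKVAV PA + PEDOT-S and 4 in IKVAV PA against the PDL control. Of all 13884 genes, 258 and 219 were then called lower. Kif2c, Kif4, Kif20b, Kif22 and Kifc1 lost the call in IKVAV PA + PEDOT-S, and Kif2c, Kif4, Kif14 and Kif18a in IKVAV PA. The summed mitotic level, at -1.02 in IKVAV PA against PDL, was then not called either, since its interval (-1.07 to -0.96) reached inside the bound. Between the scaffolds 0 members were then called higher, Kif18a included, beside 7 of all genes. With a filter of 5 CPM, which leaves fewer mitotic motors, 5 were lower in IKVAV PA against PDL, beside 228 of all genes. Of the mitotic motors left, all but Kif11 and Kif18a passed through the PDL control alone, the library where they were high. This count is therefore no check on the calls. After seeing the data, 3 further settings were added, namely Kifc1 summed with Kifc5b, the lists without genes that share exons, and the mitotic motors without Kif18a. No call of the remaining members and no class median changed sides with them.

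Counts over all genes moved with the filter and the bound. In IKVAV PA + PEDOT-S against PDL, 62 genes were higher, against 257 without a filter, 35 at 5 CPM and 13 at 2-fold, and 522 were lower, against 1068, 235 and 258. In IKVAV PA against PDL, 75 were higher, against 479, 18 and 9, and 32 among protein-coding genes, and 475 were lower, against 859, 228 and 219. Between the scaffolds 46 were higher, against 246, 21 and 7, and 280 were lower, against 1094, 99 and 75, and 149 among protein-coding genes.

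The log2 ratio of the summed transport level stayed near 0. In IKVAV PA + PEDOT-S against PDL it was 0.0064, and -0.020 with total counts, 0.013 without a filter, -0.0071 at 5 CPM, -0.0018 without shared exons and -0.0015 without Kif1a. In IKVAV PA against PDL it was 0.017, and 0.0074 with total counts, 0.0056 without a filter and 0.027 for protein-coding genes. Between the scaffolds it was -0.011, and -0.027, 0.0076, -0.023 at 5 CPM, -0.024 for protein-coding genes, -0.022 without shared exons and -0.021 without Kif1a. The mean ratio of transport motors in IKVAV PA + PEDOT-S against PDL was -0.085, against a median of -0.02.

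With the longest transcript as the length, shares in IKVAV PA + PEDOT-S, IKVAV PA and PDL were 58.1%, 54.9% and 55.8% for Kif5c, 39.5%, 42.4% and 43.5% for Kif3a, 65.7%, 65.3% and 65.1% for Kif1a, 76.0%, 77.2% and 76.6% for Kif21b, and 68.0%, 67.3% and 70.5% for Kif13a. No paired analysis was possible because each group has 1 library. At this depth the scarcest members, such as Kif14 with 47 counts in IKVAV PA + PEDOT-S, carry the widest intervals.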

Other observations

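Between the scaffolds, Kif18a was the only one called among the 12 mitotic motors, the 23 measured mitotic partners and the 8 proliferation markers. Over all genes 0.331% were called higher and 2.02% lower there, so few calls would be found in lists of this size anyway. The next highest ratio in these lists was that of Hmmr, a spindle-binding protein, which had 2.85 CPM in IKVAV PA + PEDOT-S, 1.67 CPM in IKVAV PA and 5.78 CPM in the PDL control, with a log2 ratio of 0.77 between the scaffolds that was not called. Of the kinesins outside the 39, Kif2b and Kif12 had no count in any library, and Klc4, a light chain, had 17.4, 17.3 and 18.0 CPM in IKVAV PA + PEDOT-S, IKVAV PA and PDL.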
